A study of Mus musculus with 14 samples.

Results

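Myelin is the stack of compacted membrane that oligodendrocytes wrap around axons, and 9 genes for its structural proteins were followed here: Mbp, Mog, Mag, Mobp, Cnp, Mal, Cldn11, Opalin and Ermn. They were chosen by name, as the rows with these symbols, and not by any measured value. All 9 were found among the 32958 gene symbols counted in sorted oligodendrocytes and among the 20856 symbols kept from the 8 single-cell tables.

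The study compared male C57BL/6 mice given saline (mock) with mice given morphine sulfate, both by injection into the peritoneum; no dose or time of collection was given in the sources used here. Single cells of the nucleus accumbens, a part of the ventral striatum, were profiled by Drop-seq in 4 mock and 4 morphine pools of 2 mice each. Pools 1 and 2 of either group were 37 to 45 days old and pools 3 and 4 were 78 to 82 days old, with the same ages under the same number. In a second experiment, cells of whole brain from mice aged 70 days were immunostained and oligodendrocytes purified by flow cytometry, giving 3 mock and 3 morphine libraries of amplified RNA; the antigen was not given in the sources used here. The pool or library was the replicate throughout.

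Compaction of the membrane depends on Mbp, a basic protein that draws the cytoplasmic faces together. Mobp is a smaller basic protein of the same dense line, Mag and Mog are immunoglobulin-like proteins of the inner and outer surface, and Cnp is a phosphodiesterase of the uncompacted channels. Cldn11 builds the radial tight junctions, Mal organises lipid rafts, Opalin is a transmembrane glycoprotein of oligodendrocytes, and Ermn is a cytoskeletal protein of the outer cytoplasmic lip. Mbp and Mobp messenger RNAs are known to be carried out of the cell body and translated at the forming sheath, whereas many other myelin messages are translated at the cell body.

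The sequences just upstream of the 3 genes that changed in sorted cells are shown first, so that the letters can be read beside the values that follow. They come from RefSeq (GRCm38.p6), which held an entry for 8 of the 9 members; Mbp had none. Each is the 250 bases before the transcription start, written 5′ to 3′ on the strand of the gene. The last 35 bases before the RefSeq start of Mobp were left out because GENCODE vM21 places them within its transcripts. Capitals mark the SOX motif ACAAAG or its reverse complement CTTTGT, the core that SOX10 and related factors recognise.
Mobp (chr9:120149492-120149706, plus strand): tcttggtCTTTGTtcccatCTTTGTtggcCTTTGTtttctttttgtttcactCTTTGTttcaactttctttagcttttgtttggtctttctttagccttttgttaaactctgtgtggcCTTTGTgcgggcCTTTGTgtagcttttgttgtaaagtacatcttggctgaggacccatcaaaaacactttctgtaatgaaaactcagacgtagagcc
Ermn (chr2:58052865-58053114, minus strand): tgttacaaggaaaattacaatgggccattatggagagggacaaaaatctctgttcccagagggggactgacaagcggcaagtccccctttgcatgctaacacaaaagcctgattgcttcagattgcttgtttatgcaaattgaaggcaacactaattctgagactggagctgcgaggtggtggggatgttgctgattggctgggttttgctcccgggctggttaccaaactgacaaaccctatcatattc
Opalin (chr19:41077114-41077363, minus strand): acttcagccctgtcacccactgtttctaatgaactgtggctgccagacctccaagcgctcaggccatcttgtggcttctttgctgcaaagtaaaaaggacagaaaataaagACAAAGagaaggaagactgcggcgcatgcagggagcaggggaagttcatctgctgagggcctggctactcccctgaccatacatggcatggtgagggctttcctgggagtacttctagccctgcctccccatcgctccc

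Mobp carried 6 such matches, at 243, 231, 221, 198, 132 and 120 bases before its RefSeq start. Opalin carried 1 match at 139 bases before its start and Ermn carried none. Of 32851 mouse promoters of the same length, 16.5% held at least 1 match on either strand. Only 1 promoter, or 0.00304%, held 6 or more, and it is that of Mobp itself. The cut of 6 was taken from the count in Mobp, so this share is a description and not a test. The MYRF motif CTGGCAC was in none of these 3 windows and in 4.19% of all promoters. Among members that did not pass in sorted cells, Mag and Cnp each carried 1 SOX and 1 MYRF match. Mog, Mal and Cldn11 carried neither motif, so the matches did not follow the calls. Neither the steroid receptor site AGAACA, found in 16.1% of promoters, nor the palindromic glucocorticoid response element, which contains it and was found in 0.00913%, was in the windows of the 8 members. A match is a match of letters only.

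In oligodendrocytes sorted from whole brain, Mobp rose and Ermn and Opalin fell after morphine, while the other 6 members did not pass the test. Mobp was counted at 3418, 3311 and 3462 counts per 1000000 reads in genes (CPM) in the mock libraries. The morphine libraries held 4914, 5119 and 4968 CPM of Mobp. Every morphine library lay above every mock library, a log2 fold change of 0.58 (SE 0.042, n = 3 and 3, adjusted p = 1.2e-09 by edgeR's quasi-likelihood test with Benjamini-Hochberg adjustment over all genes).

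Ermn moved the other way. It stood at 884, 821 and 857 CPM in the mock libraries, against 615, 590 and 617 CPM with morphine. On the log2 scale it fell by 0.47, with an SE of 0.051 and an adjusted p of 6.43e-07 by edgeR. Opalin had the lowest level per kilobase of the 9 and also fell. Its levels were 278, 288 and 278 CPM in the mock libraries, against 228, 220 and 221 CPM with morphine. On the log2 scale it fell by 0.31, with an SE of 0.054 and an adjusted p of 2.27e-04 by edgeR. For both genes the groups did not overlap.

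So 1 of the 9 members was called higher, where 8.09% of the 15751 genes tested were, and 2 were called lower, where 6.68% were; in either direction 14.8% of all genes were called. The median log2 fold change of the 9 was 0.05, against -0.02 over all genes tested. Groups did not overlap for 3 members that were higher (Mobp, Mog and Mal) and 2 that were lower, a state shared by 13.1% and 16.0% of all genes. The authors' deposited table gives log2 fold changes of 0.61 for Mobp, -0.43 for Ermn and -0.28 for Opalin.

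**Figure D1:**
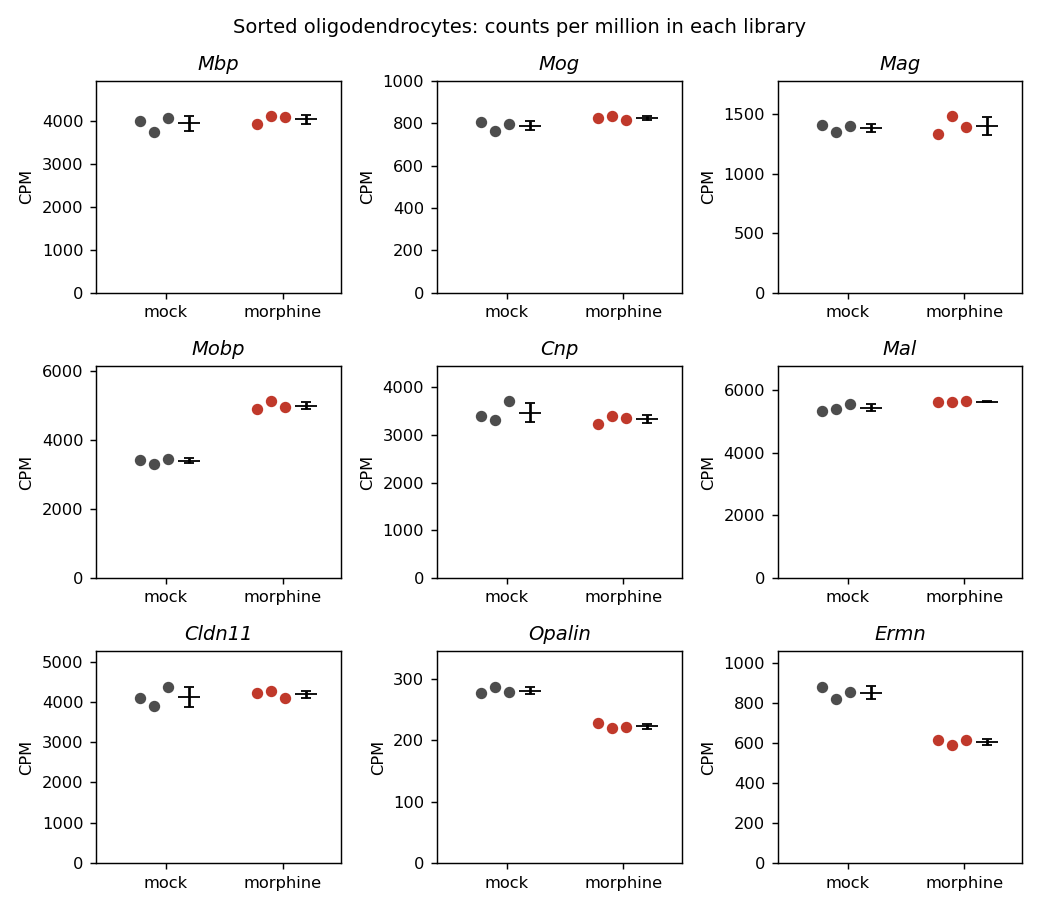
Counts per 1000000 reads in genes (CPM, vertical axes from 0) of each member in the 3 mock (grey) and 3 morphine (red) libraries of sorted oligodendrocytes; the black mark and bar beside each group are the mean and SD. Mobp lies higher and Ermn and Opalin lie lower in all morphine libraries, while the points of Mbp, Mag, Cnp and Cldn11 overlap.

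The other 6 members had log2 fold changes from -0.03 to 0.09. Mbp averaged 3938 ± 171 CPM in mock and 4037 ± 102 CPM in morphine libraries (SD, n = 3 each), with a log2 fold change of 0.06 and a 95% interval of -0.03 to 0.15. Mog averaged 789 ± 22.0 and 824 ± 9.95 CPM, and Mal 5444 ± 109 and 5642 ± 9.52 CPM. The difference in Mal was 0.08 on the log2 scale and that in Mog 0.09 (adjusted p = 0.281 for Mog by edgeR), so neither passed although the groups did not overlap.
Mag averaged 1386 ± 33.2 and 1404 ± 74.5 CPM, Cnp 3470 ± 208 and 3326 ± 83.6 CPM, and Cldn11 4129 ± 246 and 4193 ± 89.6 CPM. These 3 overlapped between groups.

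Per kilobase of exon, the order of levels in mock libraries ran from Cldn11 (2208 ± 132 CPM per kb) and Mal (1960 ± 39.1) through Cnp (953 ± 57.2) to a close group. That group was Mobp at 496 ± 11.3, Mbp at 465 ± 20.2 and Mog at 463 ± 12.9 CPM per kb, of which Mbp and Mog did not differ beyond their SD. Mag at 340 ± 8.17, Ermn at 235 ± 8.75 and Opalin at 95.4 ± 1.89 CPM per kb followed. In morphine libraries Mobp reached 730 ± 15.5 CPM per kb and left that group, with Mbp at 477 ± 12.1 and Mog at 484 ± 5.84. The order depends on the length used, the union of all annotated exons, which was 8469 bases for Mbp and 1870 for Cldn11. Molecules counted in mature oligodendrocytes of the nucleus accumbens (below), not divided by length, gave another order. There Mbp averaged 9678 CPM over 8 pools, Mal 6388, Cldn11 6299, Mag 4959 and Mog 1985. Together the 9 genes took 2.37% ± 0.0815 of gene reads in mock and 2.53% ± 0.0369 in morphine libraries, and the share of Mobp among them went from 14.3% ± 0.198 to 19.8% ± 0.138.

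Some features of the loci bear on these counts. Mobp (GRCm38 chr9:120149707-120181484) shares exon sequence with Gm38642 on the same strand. Ermn (chr2:58045113-58052864) overlaps an exon of Galnt5 on the other strand, and Cnp (chr11:100574904-100591729) one of Dnajc7; whether counting used strand was not given in the sources used here, so reads of such pairs cannot be told apart. In bulk libraries, fewer cells of a type and less RNA per cell cannot be told apart either. The summed level of the 12 mature oligodendrocyte markers, none of them a member, ranged over 3970 to 4400 CPM without morphine and 3748 to 3970 CPM with it. The summed level of 12 endothelial markers was 76.1 to 78.4 and 49.1 to 69.2 CPM, and that of 12 ependymal markers 621 to 695 and 254 to 711 CPM; none of these markers was at 0 in all libraries. Their part in the result was not tested.

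Other genes that serve myelin also moved both ways in the sorted cells, where 8.09% of all genes tested were called higher and 6.68% lower. Of 16 other myelin and paranode proteins, 3 rose and 2 fell: Nfasc, the neurofascin of the paranodal junction, rose by 0.36 on the log2 scale, Sirt2 by 0.33 and the tetraspanin Tspan2 by 0.25. Tppp, which bundles microtubules, fell by 0.68 and the connexin Gjb1 fell by 0.36. Of 12 genes of myelin lipid synthesis, 1 rose and 4 fell: Cers2, a ceramide synthase, rose by 0.23. Aspa, which frees acetate for lipid synthesis, fell by 0.53, the elongase Elovl7 fell by 0.47 and the sulfatide synthase Gal3st1 fell by 0.44.

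Of 9 genes for transport, splicing and local translation of myelin messages, 1 rose and 2 fell. Fyn, a kinase of the signal that releases Mbp message for translation, rose by 0.97 on the log2 scale. The kinesin Kif21b fell by 0.79 and Qk, an RNA-binding protein of myelin messages, fell by 0.45. Of 10 transcription factors of myelin genes, 2 rose and 4 fell, where 8.09% of all genes tested rose and 6.68% fell. Olig1 rose by 0.53 and Sox8 by 0.37, whereas Nkx2-2 fell by 1.62, Sox10 by 0.95 and Tcf7l2 by 0.50. The median log2 fold changes of the 4 lists were -0.04, -0.04, -0.15 and -0.03 in that order, against -0.02 over all genes tested.

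In the nucleus accumbens, cells were placed in stages by markers that were not members. A precursor, a newly formed or a mature oligodendrocyte had to show at least 3 of that stage's markers and clearly more of them than of any other cell type. The mature gate held 2844 cells (130 to 710 per pool), the newly formed gate 171 (14 to 33) and the precursor gate 545 (28 to 130), of 33216 cells kept. The 9 members took 4.47% ± 0.486 of all UMIs in the mature gate (unique molecular identifiers, 1 per captured transcript; SD, n = 8). They took 2.82% ± 0.959 of UMIs in the newly formed gate and 0.161% ± 0.0691 in the precursor gate.

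The 9 members did not come on together. Mbp, Cnp, Mag and Cldn11 were already near their mature level in newly formed oligodendrocytes, whereas most of the mature CPM of Mog, Opalin, Mobp, Mal and Ermn was gained afterwards. On the log2 scale, Mog and Mobp gained no less before that stage (3.94 and 2.53) than after it (3.41 and 2.22). Newly formed cells held 113% ± 27.1 of the mature CPM of the same pool for Mbp, 104% ± 19.3 for Cnp, 94.3% ± 38.0 for Mag and 79.1% ± 21.9 for Cldn11 (SD, n = 8 pools). The shares were 31.8% ± 17.6 for Mobp, 12.4% ± 4.40 for Mog and 11.3% ± 9.20 for Opalin. Ermn and Mal stood at 2.02% ± 2.16 and 1.96% ± 2.09 of the mature level, where microglia, which do not make myelin, held 1.70% ± 1.33 and 2.02% ± 1.22.

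From precursors to newly formed cells, 7 of the 9 rose and none fell, where 21.7% of 3320 genes tested rose and 23.0% fell, 44.7% in all. Mag went from a median of 49.9 CPM (8.64 to 230 over 8 pools) to 3719 CPM (3011 to 9669), and the groups did not overlap. Its log2 fold change was 6.39 (SE 0.225, adjusted p = 2.85e-27 by edgeR with the pool as a block). Mag held 46 UMIs over all precursors and was too low to be tested within that gate, as were Mog, Mal, Cldn11, Opalin and Ermn. Its precursor level was 1.33% ± 1.30 of the mature one, near the 1.55% ± 0.666 of astrocytes. The size of this fold change thus rests on a low base. Cldn11, Cnp and Mbp gained 6.31, 4.52 and 4.10 on the log2 scale, Mog 3.94, Mobp 2.53 and Opalin 2.51. Ermn had a log2 fold change of 1.22 (adjusted p = 0.0526 by edgeR) and Mal one of 0.55 (adjusted p = 0.27), so neither passed.

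From newly formed to mature cells Mal and Ermn gained most. Mal stood at a median of 75.8 CPM (14.9 to 507) in newly formed and 6317 CPM (4579 to 7989) in mature cells, a log2 fold change of 6.13 (SE 0.211, adjusted p = 1.94e-45 by edgeR with the pool as a block). Ermn went from a median of 39.2 CPM (0 to 174) to 3325 CPM (2740 to 4667), a log2 fold change of 5.96 (SE 0.216). Neither overlapped between the stages in any pool. In newly formed cells Mal, Ermn and Opalin held 66, 41 and 49 UMIs over all pools, too low to be tested within that gate. The size of their fold changes thus rests on a low base.
Opalin gained 3.64, Mog 3.41 and Mobp 2.22 on the log2 scale.

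In that comparison 8 of the 9 rose and none fell, where 22.2% of 6032 genes rose and 15.8% fell, 38.0% in all, yet the values of the early genes depended on the scaling. Cldn11 gained 0.79 on the log2 scale, Mag 0.58 and Cnp 0.37, and Mbp had 0.27 (adjusted p = 0.086 by edgeR). With library totals in place of TMM scaling, the median of all genes moved from 0.06 to -0.36, and the split of calls from 1339 higher and 956 lower to 759 higher and 1888 lower. Mbp then stood at -0.15 and Cnp at -0.05, so their direction flipped, and Mag at 0.15 did not pass (adjusted p = 0.347 by edgeR). Cldn11 at 0.37 still passed, as did Mog, Opalin, Mobp, Mal and Ermn, at 1.79 to 5.71. Cnp also failed to pass in 6 of 8 fits that left out a pool, with adjusted p up to 0.112.

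**Figure D2:**
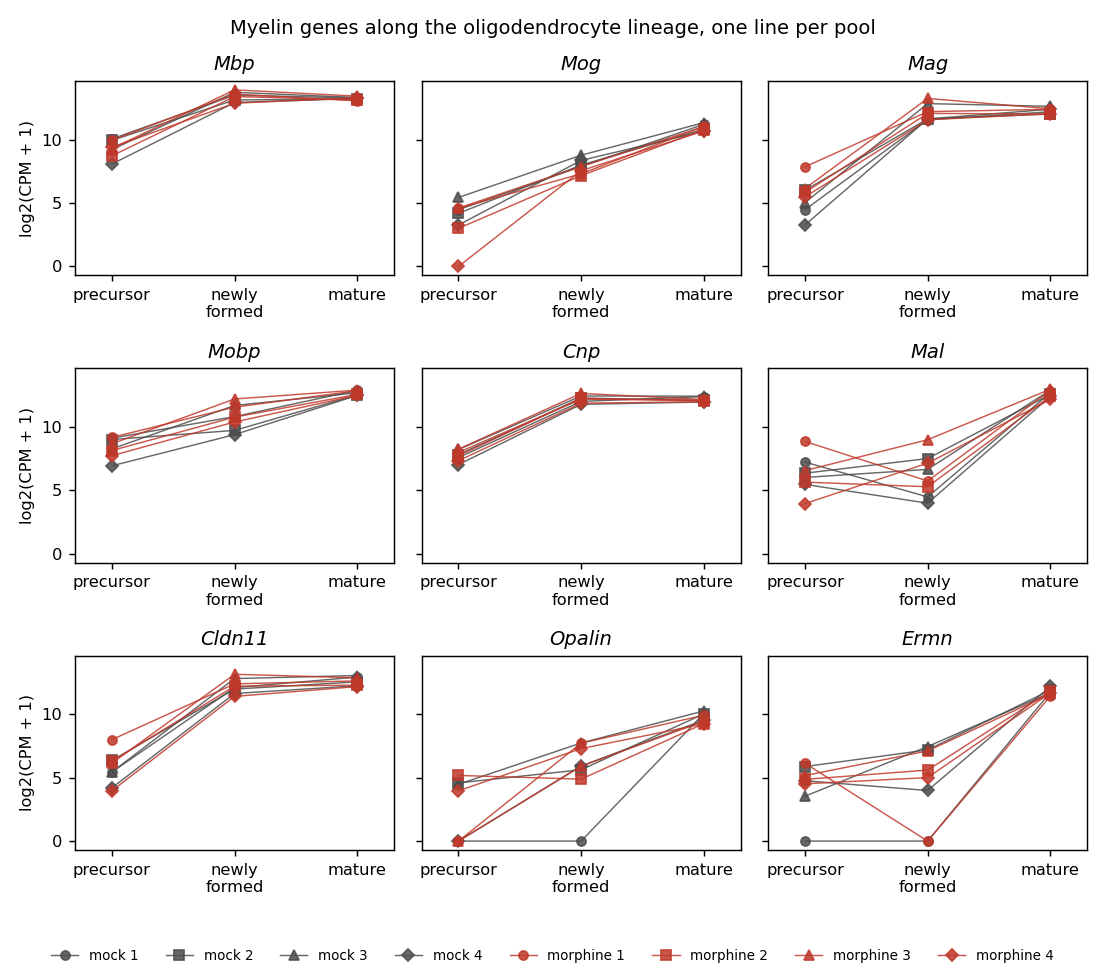
Level of each member as log2(CPM + 1) in the precursor, newly formed and mature gates, with 1 line per pool (grey mock, red morphine; the symbol gives the pool number). Mbp, Cnp, Mag and Cldn11 gain most between precursors and newly formed cells, while Mal and Ermn gain most between newly formed and mature cells.

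Morphine against mock was then compared within each stage. In mature oligodendrocytes of the nucleus accumbens none of the 9 members passed edgeR's test, where 0.162% of 7417 genes tested did. By DESeq2 none of the 9 passed either, and 1 of them, Opalin, had an unadjusted p under 0.05 by edgeR. Groups overlapped for all 9, where 1.24% of genes were higher and 2.70% lower without overlap. The members' log2 fold changes ran from -0.44 to 0.13. Opalin was the member that differed most. Its levels were 1044, 1035, 1221 and 741 CPM in mock pools 1 to 4. In morphine pools 1 to 4 they were 963, 608, 693 and 599 CPM. The morphine pool lay below the mock pool of the same number and age in 4 of 4 pairs, though the groups overlapped. The log2 fold change was -0.44 (SE 0.196, adjusted p = 0.754 by edgeR).

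Same-numbered mature samples deviated together, so the pool number was taken to pair them in this gate. With the number as a block, Opalin passed, at a log2 fold change of -0.45 (SE 0.114, adjusted p = 0.0281 by edgeR), and it was the only one of the 9 that did; 147 of 8315 genes passed in that fit.

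Ermn held 3379, 3793, 3271 and 4667 CPM in mock pools 1 to 4, against 2740, 3585, 3086 and 3252 CPM with morphine. It too was lower in morphine in 4 of 4 pairs, with overlapping groups and a log2 fold change of -0.19 (SE 0.155, 95% interval -0.51 to 0.14). Cldn11 was the other member lower in 4 of 4 pairs, at -0.14 (SE 0.209). Mobp, the gene that rose in sorted cells, held 7544, 5855, 6584 and 5715 CPM in mock pools 1 to 4, against 7360, 6038, 7621 and 5740 CPM with morphine, and the groups overlapped. Its log2 fold change was 0.13 (SE 0.17), and the 95% interval of -0.23 to 0.48 did not reach the 0.58 found in sorted cells; the difference between the preparations was not tested.

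Mbp, Mog, Mag, Cnp and Mal had log2 fold changes of 0.04, -0.08, -0.03, -0.08 and 0.06 in the mature gate, with standard errors of 0.157 to 0.199. Mbp averaged 9766 ± 359 CPM without and 9590 ± 1122 CPM with morphine, and Mal 6418 ± 949 and 6358 ± 1617 CPM (SD, n = 4). By library totals Mbp stood at -0.03 and Mal at -0.02, so both directions flipped with the scaling. Mog held 2081 ± 450 and 1890 ± 231 CPM, Mag 5117 ± 932 and 4802 ± 728 CPM, and Cnp 4777 ± 737 and 4313 ± 217 CPM. The share of mitochondrial UMIs in the median mature cell ranged over 2.82% to 3.95% without morphine and 4.61% to 7.30% with it. The summed level of 12 ependymal markers, 1 of them at 0 throughout, was 2719 CPM in 1 morphine pool of the mature gate, against 40.4 to 151 CPM in the mock pools. The part of either in these values was not tested; without mitochondrial genes in the totals none of the 9 passed either.

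**Figure D3:**
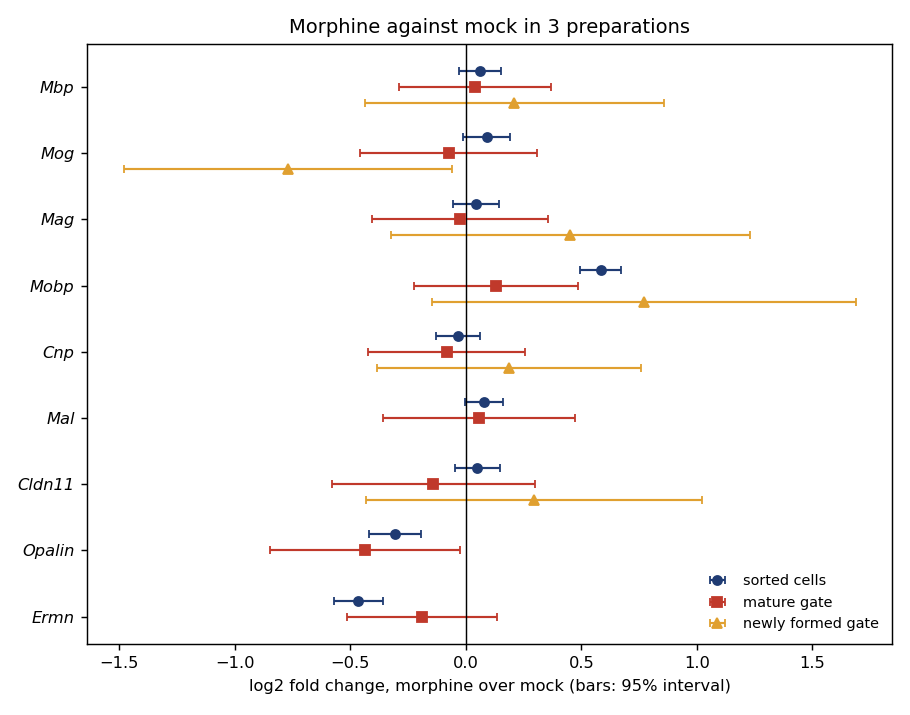
Log2 fold change of morphine over mock (horizontal axis) with its 95% interval for each member in sorted cells (blue circles), the mature gate (red squares) and the newly formed gate (yellow triangles). The intervals of Mobp, Opalin and Ermn in sorted cells do not reach 0; those of the gates are wider, and among them only Opalin in the mature gate and Mog in the newly formed gate lie clear of 0, before adjustment. Mal, Opalin and Ermn were too low to be tested in the newly formed gate.

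In newly formed oligodendrocytes, 6 of the 9 members had counts enough to be tested and none passed; 0 of 1394 genes, or 0%, did by edgeR, with 29 at an unadjusted p under 0.05 and 0 by DESeq2. Mobp held 1791, 843, 3292 and 668 CPM in mock pools 1 to 4. It held 3005, 1743, 4698 and 1335 CPM in morphine pools 1 to 4, from 86 to 241 UMIs each. The morphine pool was the higher one in 4 of 4 pairs of the same age, but the pools differed so much among themselves that the groups overlapped. The log2 fold change was 0.77 (SE 0.441, adjusted p = 0.999 by edgeR). Newly formed cells showed on average 1.0, 1.4, 1.4 and 0.7 mature markers in mock pools 1 to 4. With morphine they showed 1.1, 1.2, 2.6 and 1.4, lower than mock in pool 2 only. The part of stage within the gate was not tested. With the pool number as a block Mobp passed, at 0.85 (SE 0.175, adjusted p = 0.0016 by edgeR), as did 7 of 1905 genes. Same-numbered samples of this gate correlated at -0.01 to 0.06 in their deviations over all genes. With 14 to 33 cells per pool, counting noise alone can hold such values near 0, so they do not decide whether the numbers pair these samples.

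Mog went the other way in these cells. Mock pools 1 to 4 held 235, 253, 435 and 327 CPM of Mog, against 157, 142, 234 and 186 CPM with morphine, from 6 to 35 UMIs each. The groups did not overlap, which held for 1.15% of the genes tested in that direction and 0.574% in the other, and the log2 fold change was -0.77 (SE 0.341, adjusted p = 0.999 by edgeR). Mbp, Mag, Cnp and Cldn11 had log2 fold changes of 0.21, 0.45, 0.19 and 0.29, each with overlapping pools. Leaving out morphine pool 3 turned the direction of all 4, to values from -0.13 for Cldn11 to -0.020 for Cnp. With the looser gate Mog stood at 0.06, so its direction did not hold.

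**Figure D4:**
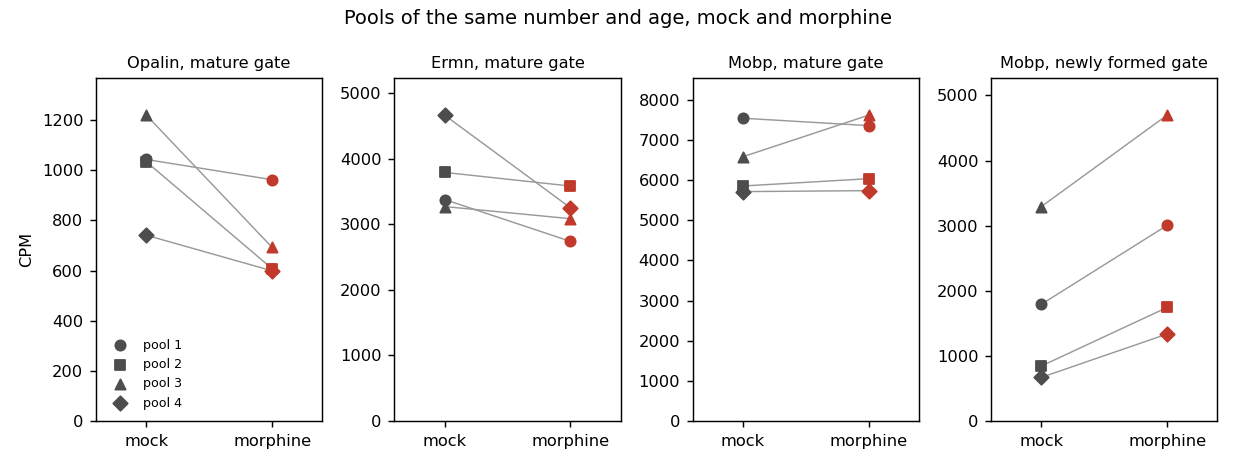
Counts per 1000000 UMIs (CPM, axes from 0) of Opalin, Ermn and Mobp in the mature gate and of Mobp in the newly formed gate, with a line joining the mock and the morphine pool of the same number and age. Opalin and Ermn lie lower in morphine in 4 of 4 pairs of the mature gate, and Mobp lies higher in 4 of 4 pairs of the newly formed gate.

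In precursors only Mbp, Mobp and Cnp could be tested, with log2 fold changes from -0.08 to 0.13, and none passed, where 0.0398% of 2515 genes did. Mature cells made up 8.04% ± 3.67 of all cells without and 9.21% ± 2.09 with morphine (SD, n = 4 each), a difference within the spread (exact permutation test, two-sided, p = 0.571). Between older and younger pools of the mature gate, log2 differences of the members ran from -0.13 to 0.26 and none passed edgeR's test; 0 of 7810 genes, or 0%, did, with 806 at an unadjusted p under 0.05. The difference in the change with morphine between the ages ran from -0.41 to 0.19 and passed for no member, as for 0 of 8315 genes, or 0%, with 123 at an unadjusted p under 0.05.

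Outside the lineage the 9 messages were found at low levels in all cell types, in proportions unlike those of mature oligodendrocytes. Their sum was 0.104% ± 0.0375 of UMIs in neurons, 0.184% ± 0.0499 in astrocytes, 0.240% ± 0.0917 in microglia and 0.255% ± 0.0690 in endothelial cells (SD, n = 8). In droplet experiments free RNA is captured beside any cell, so a low level by itself does not show expression by these cells; the part of free RNA was not tested. A UMI of Mbp was seen in 62.7% of neurons, or 33.4% ± 9.47 after thinning to 1000 UMIs per cell, and in 52.3% of astrocytes, or 41.9% ± 9.61 after thinning. Median UMIs per cell ran from 2145 to 3893 over the pools in neurons and from 1140 to 1735 in astrocytes.

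Mbp and Mobp stood out in most of these cell types. Together they were 36.4% ± 2.36 of the members' UMIs in mature oligodendrocytes, 32.4% to 40.8% over the 8 pools. They were 73.6% ± 5.41 in neurons, 71.5% ± 5.95 in astrocytes, 75.7% ± 7.76 in microglia and 72.4% ± 11.2 in mural cells. Endothelial cells, where Mal was high, differed, at 42.6% ± 10.7, and their range of 26.4% to 59.5% overlapped that of mature cells. The ranges of neurons (67.1% to 81.7%) and of mature cells did not come near each other. Precursors, at 66.7% ± 8.56, lay near the cells outside the lineage, and newly formed cells, at 46.7% ± 3.43, lay between.

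Gene by gene, neurons held 5.30% ± 1.72 of the mature CPM for Mbp and 3.64% ± 1.14 for Mobp, but 0.734% ± 0.302 to 1.41% ± 0.487 for the other 7. The log2 ratio of neuron to mature CPM, less the mean of the 9 ratios of the same pool, was 2.05 ± 0.300 for Mbp and 1.52 ± 0.268 for Mobp, above 0 in 8 of 8 pools (exact sign permutation test, two-sided, p = 0.0078, the smallest possible; 0.0088 adjusted over the 9 genes). The ratio was below the mean in 8 of 8 pools for Mog, Mag, Mal, Cldn11, Opalin and Ermn, from -0.88 for Mog to -0.40 for Opalin, with the same p. Cnp lay near the mean, at 0.13 ± 0.165, above it in 6 of 8 pools (exact sign permutation test, p = 0.0625). These deviations add up to 0 by construction, and this test was chosen after the values had been seen. The Mbp locus also encodes golli transcripts known from cells outside the lineage, which these counts cannot tell apart from the myelin transcripts.

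Mal and Cnp departed from this pattern. Mal held 722, 1047, 878 and 1063 CPM in endothelial cells of mock pools 1 to 4, against 1976, 1251, 1301 and 1294 CPM with morphine. That was 19.2% ± 6.45 of the mature level, against 0.845% to 2.02% in neurons, astrocytes and microglia, and 70.3% of endothelial cells held a UMI of Mal (60.0% ± 8.64 after thinning), against 14.6% of neurons. The morphine pools lay above the mock pools without overlap, as 1.04% of genes tested did, while 2.24% were lower without overlap. The share of mitochondrial UMIs in the median endothelial cell ranged over 3.21% to 5.36% without morphine and 5.34% to 8.07% with it, and its part was not tested. The log2 fold change was 0.70 (SE 0.208, n = 4 and 4), but the adjusted p of 0.799 by edgeR did not pass; 0 of 5369 genes, or 0%, did, with 250 at an unadjusted p under 0.05.

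Cnp held 4.61% ± 1.30 of the mature level in astrocytes and 4.84% ± 1.16 in precursors, against 1.41% ± 0.487 in neurons and 1.55% ± 0.794 in endothelial cells. None of the 9 passed between morphine and mock in neurons, where 0 of 13340 genes, or 0%, did by edgeR (193 at an unadjusted p under 0.05, 1 by DESeq2) and the members' log2 fold changes ran from -0.29 to 0.49. None of 8 tested passed in astrocytes, where 0.0266% of 7514 genes did and the members ran from -0.20 to 0.32. None of 6 tested passed in microglia, where 0 of 3207 genes, or 0%, did (179 at an unadjusted p under 0.05).

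In microglia the 6 log2 fold changes were all below 0, from -1.27 to -0.23, with a median of -0.41 against -0.01 over all genes tested. Cnp had the lowest. Mock pools 1 to 4 held 281, 173, 132 and 115 CPM of Cnp in microglia, against 78.7, 123, 46.1 and 57.6 CPM with morphine, from 2 to 37 UMIs each. The morphine pool was lower in 4 of 4 pairs, the groups overlapped, and the log2 fold change was -1.27 (SE 0.382, 95% interval -2.07 to -0.46, adjusted p = 0.729 by edgeR). The 6 members share these libraries, so their common direction is not 6 separate results. Morphine pool 1 held 25 microglia with 80 UMIs of the members. The mitochondrial share of the median microglial cell was 2.61% to 7.35% without morphine and 3.97% to 9.72% with it. Its part was not tested.

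**Figure D5:**
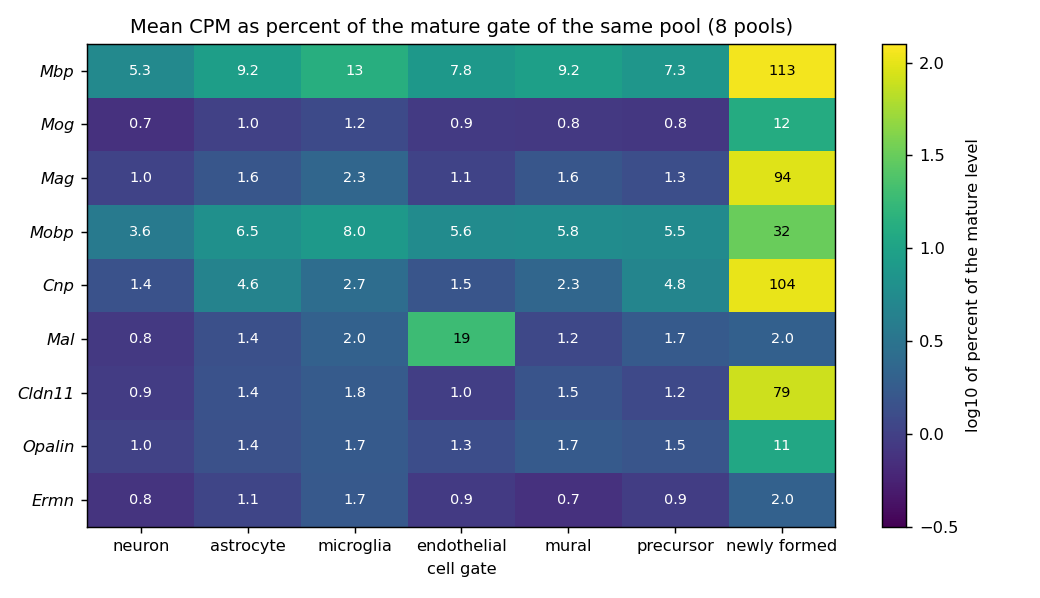
Mean level of each member (rows) in 7 cell gates (columns) as percent of the CPM in the mature gate of the same pool, averaged over 8 pools; colours give log10 of that percent. Mbp and Mobp stand above the other members in the 5 cell types outside the lineage, except that Mal is higher in endothelial cells (19), and Mbp and Cnp reach 113 and 104 in newly formed cells.

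Genes that followed the members closely over all 72 sums of UMIs per cell type and pool were named by their correlation with the mean log2 level of the 9, among 8102 genes. Ptgds, a prostaglandin D synthase, had a Pearson r of 0.91, and Tmem125, Tmem88b and Nipal4 had 0.87, 0.86 and 0.85. The members themselves, each set against the mean of the other members, ranged from 0.92 for Cldn11 and Mag down to 0.68 for Ermn and 0.65 for Mal. Ermn and Mal were the last to rise along the lineage, and Mal was also high in endothelial cells. The part of either in these correlations was not tested. The sums share libraries and depth, so this is a description with no test.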

How the data were processed

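Single-cell files as deposited give whole UMI counts for each gene and barcode, and the sorted-cell file as deposited gives raw read counts without molecular identifiers. The authors' table for the sorted cells gives log2 fold changes, p-values, a mean signal per gene, and a standard error and test score, per the file headers. For tools, the submitters' processing notes list STAR 2.4.2a, Trimmomatic 0.36, HTSeq, DESeq and DESeq2, and mm10 as build, without saying for which data. Rows naming no gene took 69.5% to 74.3% of sorted-cell reads and were left out, leaving 14989118 to 23456702 reads in genes per library.

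Barcodes with 300 genes or more and no more than 20% of UMIs from mitochondria were gated on counts of distinct markers (at least 3, at least 2 times any distant list and at least 2 more than a neighbouring stage). This left 5493 cells, mixed ones among them, ungated; no doublet caller was run, and pairs of pools shared 1 to 9 barcodes. Of mature cells, 1798 also met a stricter gate and 569 more cells met only a looser one. UMIs, of which the pools held 6910203 to 24668659, were summed per pool and gate. The sums covered symbols found both in a table of the pools numbered 1 and in a table of the other pools. A symbol absent from a table had no UMI there. Another 6119 symbols, in the tables of pools numbered 1 only, were left out. Printed CPM are plain counts per 1000000; fold changes and p-values are from edgeR 4.0.16 (quasi-likelihood, TMM, filterByExpr, adjusted p under 0.05), tested on simulated data. Alternatives were DESeq2 1.42.0, other scalings, filters and gates, pool number as a block, age as a covariate and each sample left out. Levels per kilobase used GENCODE vM21 exon unions.

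Same-numbered samples correlated in their deviations at 0.161 to 0.379 in all 4 pairs of the mature gate. The values were -0.01 to 0.06 in the newly formed gate and 0.01 to 0.07 in the precursor gate. In the neuron gate they ran from -0.29 to 0.77, where samples of different numbers ran from -0.56 to 0.48. The criterion for pairing, a value above 0.1 in every pair, was thus met in the mature gate only. In the newly formed and precursor gates few cells were summed, so a low correlation there does not decide whether the numbers pair. Columns of the sorted table were matched to groups, not to numbered samples. The rule was to describe all 9 members in every comparison, by name or by their range, with at most 3 genes a direction from each other list and genes among the 10 of most similar pattern, of which some are not reported here; members and lists were chosen with earlier results of these data known. No source says whether the 3 sorted libraries of a group were prepared on separate days. Intervals cover counting and replicate spread only.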

Additional observations from a re-analysis of the deposited data

Results flagged for a closer look

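2 of 72 groups of 4 pools held a pool far from the other 3; chance gives about 1 in 20 such groups. Both concern Mag. In newly formed oligodendrocytes mock pool 3 held 7292 CPM, against 3028 to 3166 CPM in the other mock pools. Morphine pool 3, of the same age, held 9669 CPM, the highest of all pools. In precursors morphine pool 1 held 230 CPM of Mag, against 43.7 to 69.7 CPM in the others.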

How the results depend on the processing

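In sorted cells the calls of Mobp, Ermn and Opalin were the same under every alternative, and 98 of 99 member values kept direction and call; Cnp ranged from -0.068 to 0.013 when a library was left out. No paired analysis was possible in sorted cells because their columns give the group and not the sample, so the planned block was not run there. With the replicate block 1 member passed in the mature gate (Opalin, -0.45) and 1 in the newly formed gate (Mobp, 0.85, adjusted p = 0.0016 by edgeR). In the newly formed gate same-numbered samples correlated at -0.01 to 0.06, below the criterion of pairing, which cannot decide with so few cells. The block changed no other call of a member. Reversed values in the mature gate were Mbp at -0.064 and Mag at 0.20 in younger pools only, Mbp at -0.029 and Mal at -0.016 by library totals, and Mal at -0.014 with the stricter gate. With a pool left out, Mbp ranged from -0.051 to 0.10, Mog from -0.19 to 0.077, Mag from -0.13 to 0.12, Cnp from -0.17 to 0.017, Mal from -0.095 to 0.19 and Cldn11 from -0.30 to 0.018. In the newly formed gate Mbp was -0.070 with the stricter gate and Mog 0.056 with the looser one; with a pool left out Mbp ranged from -0.024 to 0.36, Mag from -0.057 to 0.88, Cnp from -0.020 to 0.30 and Cldn11 from -0.13 to 0.58. Mature against newly formed, Mbp was -0.15 and Cnp -0.049 by library totals. Newly formed against precursor, Ermn passed with the looser gate (1.27, adjusted p = 0.0070 by edgeR). Mal in endothelial cells kept its direction, at 0.53 to 0.78, and passed in none of 12 alternatives. The difference in the share of mature cells was -0.025 percentage points in younger pools and -0.015 to 2.53 with a pool left out. Causes were not tested. All genes called in the mature gate numbered 12, but 28 by DESeq2, 70 without a filter, 147 with the block, 19 with age as a covariate, 7 to 27 with a pool left out and 2 or 0 in younger or older pools; in the newly formed gate they numbered 0, but 2 without a filter and 7 with the block. In the precursor gate they numbered 1, and 0 to 6 elsewhere, in the neuron gate 0 but 1 by DESeq2, and between ages 0, but 1 without mock pool 1 and 10 without mock pool 2. The stricter gate gave 1192 and 531 in the stage comparisons, in place of 2295 and 1483. Of the 3 stages, newly formed cells were the fewest (14 to 33 per pool), and 3 members could not be tested there. In precursors only Mbp, Mobp and Cnp could be tested. Library totals for the gates and stages, the age groups and the alternatives for astrocytes, microglia and endothelial cells were added after seeing the data.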
